A study of Mus musculus with 32 samples.

Results

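Dppa3, also called stella or PGC7, was followed across the 16 groups of a mouse study on making primordial germ cell-like cells (PGCLCs) in culture. The gene was found by its symbol in the platform annotation. It is 1 of 18193 genes on the arrays and had 1 probe set, 1424295_at, of the 45037 that remained after the controls were left out. RefSeq places the gene on chromosome 6 of the mouse assembly GRCm38.p6 and lists a pseudogene, Dppa3-ps, on chromosome X. Whether the probe set also reads the pseudogene, or the stella reporters that most of these cells carry, was not tested.

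Dppa3 encodes a small nuclear protein that the oocyte passes on to the zygote. There it binds chromatin with H3K9 dimethylation and protects the maternal genome, and some imprinted genes, from loss of DNA methylation. In oocytes and pluripotent cells it also binds UHRF1, the factor that brings the maintenance methyltransferase DNMT1 to replicating DNA, and moves it out of the nucleus. The gene is switched off as the epiblast leaves naive pluripotency and comes back on in primordial germ cells (PGCs), which is why stella reporters are used to mark them.

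The study measured 32 samples on Affymetrix arrays, 2 for each group, and asked how PGCLCs made with transcription factors compare with those made with cytokines. The 22 new arrays came from male cells of a mixed C57BL/6 and 129 background, all with the reporters Blimp1-mVenus and stella-ECFP and with Rosa26-rtTA, which drives tetO promoters when doxycycline (Dox) is present. The parental clone gave EpiLCs (epiblast-like cells, derived from embryonic stem cells, ESCs, in 36 h), cytokine-induced PGCLCs (Ck-PGCLCs) at days 2 and 4, and a negative control kept with Dox until day 2. Factor lines carried further piggyBac transgenes behind tetOx8-mCMV promoters. BP14A had Avi-tagged Blimp1 (the protein of Prdm1), 3xFLAG-tagged Prdm14 and V5-tagged Tfap2c; BP14 lacked the Tfap2c transgene, P14A lacked the Blimp1 transgene, and P14 had Prdm14 alone. Factor-induced cells were analysed at day 2, and BP14A cells also at day 4. They were induced from EpiLCs aggregated at 2000 cells per well with Dox at 1.5 µg/ml. The cytokines given to Ck-PGCLCs were 500 ng/ml of BMP4 and as much BMP8A, 100 ng/ml of SCF, 50 ng/ml of EGF and 1000 U/ml of LIF. The last new groups were BP14A ESCs in 2i+LIF, and BP14A ESCs with Dox at day 2 that had been sorted as stella-ECFP positive.

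The 10 arrays of an earlier series were of C57BL/6 background. They held male ESCs in 2i+LIF, EpiLCs at 48 h and Ck-PGCLCs at day 6, all with Blimp1-mVenus and stella-ECFP but no rtTA, the epiblast at embryonic day (E) 5.5 with no reporter, and PGCs at E9.5 with stella-EGFP. The epiblast and the PGCs were of unknown sex. New and earlier arrays differ in background, clone and study, which cannot be told apart, so tests between pairs of groups stayed within one set. Factor-induced cells and BP14A ESCs differ from the parental cells in clone as well as in transgenes. The labels name a sort for the BP14A ESCs with Dox only. Each group is described as a biological duplicate, yet separate cultures are nowhere named, so the p-values rest on the spread between arrays and this may be technical.

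Marker genes followed most labels. The mean of 5 naive ESC markers was 11.18 and 11.32 in the BP14A ESC arrays, and the mean of the 5 measured germ cell markers lay between 9.65 and 11.41 in the factor-induced cells at both days, Ck-PGCLCs of days 4 and 6 and PGCs. In unsorted ESCs of both sets it was 8.85 to 9.20. Ck-PGCLCs of day 2, at 8.70 and 8.82, and the sorted ESCs with Dox, at 8.58 and 8.62, lay below that range. Of these markers Prdm1, Prdm14 and Tfap2c are the genes of the transgenes, so in factor lines they do not check the label, and the remaining ones are Kit and Dnd1. The parental cells with Dox are labelled as ESCs, and the label does not say whether they passed through EpiLCs. Their naive markers averaged only 4.92 and 5.65, while their 4 primed epiblast markers averaged 9.57 and 9.94, so their markers did not match the name ESC. Fibroblast markers averaged 3.23 to 5.57 and primitive endoderm markers 4.69 to 6.57 over the arrays, the latter highest in the parental cells with Dox. Array medians before normalization lay between 4.62 and 4.79. The difference between the 5′ and the 3′ probe sets of Gapdh, which is lower where cDNA is 3′-biased, was under -2.5 in both BP14A day 4 arrays and in 1 array each of the BP14, EpiLC 36 h, BP14A ESC and sorted ESC groups.

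Levels are given as quantile-normalized log2 expression, mean ± SD of 2 arrays, and differences on the log2 scale with limma's standard error (SE). A difference was called at a Benjamini-Hochberg adjusted p under 0.05, over the 15497 genes tested, and at least 2-fold. The SE of each pair of groups was 0.25, since all groups share one estimate of the spread. In bulk samples, fewer cells that express Dppa3 and less Dppa3 RNA per cell cannot be told apart.

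Dppa3 had one of the widest ranges on the arrays. Its 16 group means spanned 7.35 log2 units, a wider range than that of 99.6% of the genes tested, while its pooled SD within groups was 0.25, near the median of 0.27 over all genes. The lowest mean, 5.77 ± 0.48, was that of the parental cells with Dox, and the highest, 13.12 ± 0.14, that of PGCs. Between these the groups fell into a graded lower part, made of epiblast, EpiLC, early cytokine-induced and ESC samples, and a narrow upper part. The upper part held all factor-induced cells, the sorted ESCs, Ck-PGCLCs of days 4 and 6 and PGCs, whose 9 means lay between 12.56 and 13.12.

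**Figure D1:**
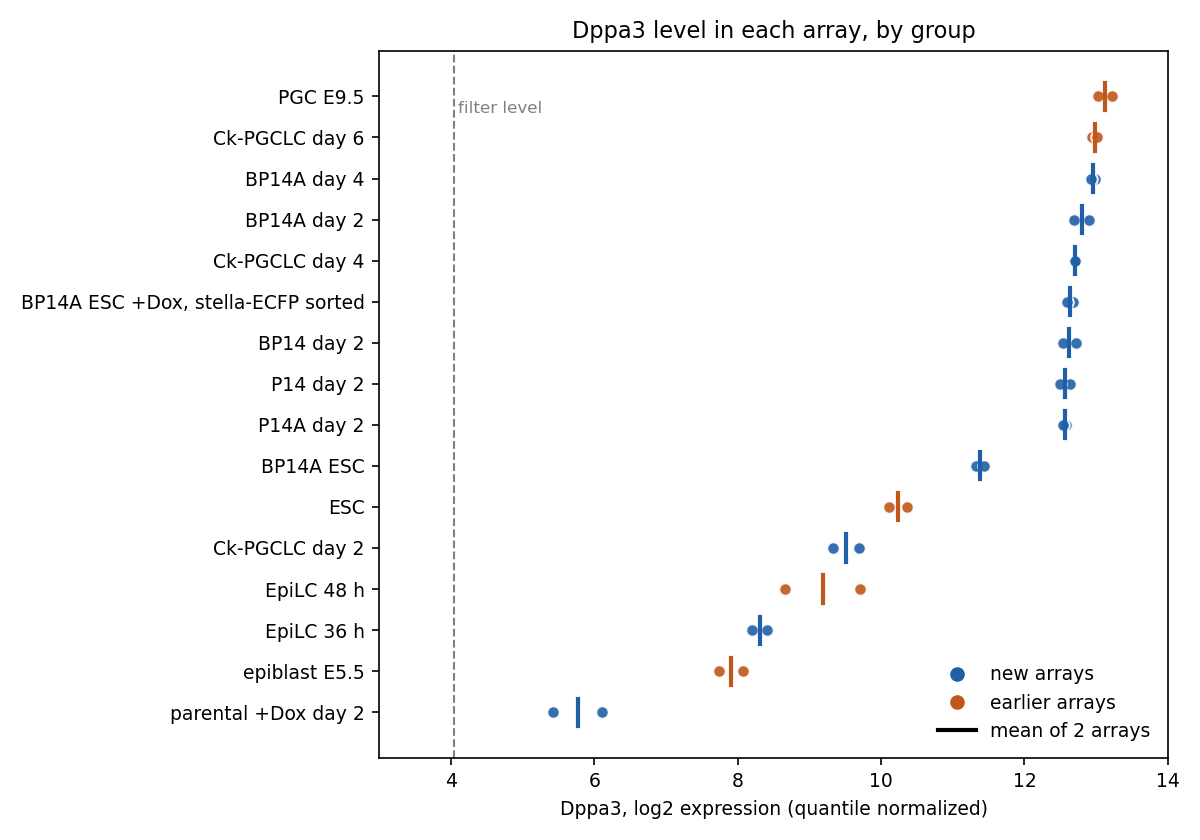
Dppa3 level (x axis, quantile-normalized log2 expression) in each array, with groups on the y axis ordered by mean; points are arrays, bars the mean of 2 arrays, blue the new and orange the earlier arrays, and the dashed line the filter level for dim genes. The parental cells with Dox stand alone at 5.43 and 6.10, and the 9 groups at the top crowd between 12.50 and 13.22.

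Among the new arrays, each of the 4 lower steps in the order was larger than the spread. From the parental cells with Dox to EpiLCs, then to Ck-PGCLCs of day 2, BP14A ESCs and P14A cells, the mean rose by 2.54, 1.21, 1.87 and 1.18, with no overlap of arrays, and the 95% interval of each step lay above 0. Above P14A the order was not resolved. Neighbouring groups from P14A to BP14 had overlapping arrays, as did Ck-PGCLCs of day 4 and BP14A cells of day 2. BP14A day 4 against day 2 did not overlap but differed by 0.15, with an interval that included 0. The sorted ESCs lay between BP14 cells and Ck-PGCLCs of day 4, as a description. The highest value of any probe set was 14.59, and whether the Dppa3 probe set still responded in proportion at these upper levels was not tested.

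The first question was how Dppa3 stood in the cells from which PGCLCs are made. BP14A ESCs in 2i+LIF had 11.33 and 11.43, and EpiLCs at 36 h had 8.41 and 8.21. Both ESC arrays lay above both EpiLC arrays by a wide margin. The EpiLCs were of the parental clone, so clone and cell state differ together here. Dppa3 was 8.43-fold lower in EpiLCs (log2 difference -3.08, limma adjusted p = 1.86e-08), where 7.45% of all genes were called lower and 7.17% higher. It was the 182nd largest fall of all genes tested, well behind Tfcp2l1 and Klf4, transcription factor genes of the naive state, whose differences were -7.19 and -7.33.

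The earlier arrays gave the same direction with a smaller difference. ESCs had 10.37 and 10.11, EpiLCs at 48 h had 8.66 and 9.71, and the E5.5 epiblast had 8.07 and 7.74. The groups did not overlap, but the EpiLC arrays lay more than 1 log2 unit apart. Dppa3 was lower in EpiLCs than in ESCs by a log2 difference of -1.05 (limma adjusted p = 0.00398), with 14.4% of all genes called. In the epiblast it was lower than in ESCs by -2.34 (limma adjusted p = 5.82e-07), with 17% of genes called. EpiLCs exceeded the epiblast by 1.28 (limma adjusted p = 0.00256), with 4.74% called.

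Both calls on EpiLCs at 48 h rest on single arrays. Without EpiLC replicate 1 the difference from ESCs was -0.53 (limma adjusted p = 0.126), and without ESC replicate 1 it was -0.93, under 2-fold. Without EpiLC replicate 2 the difference from the epiblast was 0.76 (limma adjusted p = 0.0586). Limma fits on the earlier arrays alone gave adjusted p = 0.079 against ESCs and adjusted p = 0.114 against the epiblast. The call of the epiblast against ESCs held in the fit on the earlier arrays alone and without each of its own 4 arrays.

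The fall from ESCs to EpiLCs was larger in the new arrays than in the earlier ones. This comparison was chosen after the values were seen. The fall differed by -2.02 (SE 0.36, limma adjusted p = 0.00793), a test in which 0.987% of all genes were called. With the compared groups alone the adjusted p was 0.317, and without the arrays of low Gapdh difference the value was -2.17 with adjusted p = 0.123. Hours of differentiation, background and clone all differ between the sets and cannot be told apart. Within the new set the ESCs were of the BP14A clone and the EpiLCs of the parental clone. Clone and cell state thus cannot be told apart there, and no parental ESCs were measured in that set.

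The negative control gave the level of Dppa3 in parental cells with Dox and without factors or cytokines. Whether these cells had passed through EpiLCs is not stated, so the difference from EpiLCs need not be a change over time. Parental cells with Dox at day 2 had 5.43 and 6.10, the lowest arrays of the study. Both lay below both EpiLC arrays. Dppa3 was 5.81-fold lower than in EpiLCs (log2 difference -2.54, limma adjusted p = 3.67e-07), with 5.63% of all genes called lower and 7.23% higher. In the same cells, 3 of 13 naive pluripotency genes lay above EpiLCs and 3 below, and of 9 other Dppa genes and genes of maternal factors 4 were lower and none higher. The homeobox gene Rhox9 was lower by -4.46, the X-linked homeobox gene Rhox5 by -4.73 and Dppa2, which encodes a chromatin protein of pluripotent cells, by -6.30. Prdm1 and Tfap2c, 2 genes of the factors used for induction, went the other way by 1.41 and 2.09.

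With cytokines, Dppa3 rose in 2 steps of unequal size. Ck-PGCLCs of day 2 had 9.34 and 9.69, against 8.41 and 8.21 in EpiLCs and 12.71 and 12.71 at day 4. The 3 groups did not overlap. The first step was 2.31-fold (log2 difference 1.21, limma adjusted p = 0.00121), with 8.42% of all genes called higher and 6.06% lower, and the second was 9.17-fold (3.20, limma adjusted p = 2.89e-08), with 12.5% of genes called in either direction. By day 4 Dppa3 was 21.2-fold above EpiLCs (4.40, limma adjusted p = 1.81e-10), where 9% of all genes were called higher and 7.4% lower. On the deposited values the day 2 comparison had 1621 genes higher and 713 lower, against 1305 and 939 here, and Dppa3 kept its call.

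Ck-PGCLCs of day 2 were also set against the parental cells with Dox of the same day. The difference was 3.74, or 13.4-fold (limma adjusted p = 9.29e-09), and it ranked 21st among all rises in a comparison in which 3.73% of genes were called. The EpiLC and the parental comparisons share the day 2 arrays. Ck-PGCLCs of day 2 also carried mesoderm markers, with 4 of 4 measured above the filter level and means of 9.02 and 9.25, against 3 of 4 and means of 5.06 and 5.38 in EpiLCs. At day 4 these were back to 3 of 4, with means of 5.14 and 5.96. Of 4 trophoblast markers, 3 were above the filter level at day 2, with means of 6.83 and 6.90. In EpiLCs it was 1 of 4, with means of 3.34 and 3.55, and Hand1 is in both lists. At day 4 all 4 trophoblast markers were above the filter level, with means of 5.53 and 5.73. The part of other cells in the day 2 level of Dppa3 was not tested.

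With the 3 transcription factors, Dppa3 was at its upper level already at day 2. BP14A cells had 12.91 and 12.70 at day 2 and 12.99 and 12.92 at day 4. All 4 arrays lay more than 4 log2 units above EpiLCs, and those of day 4 just above those of day 2. The rise from EpiLCs was 22.6-fold (log2 difference 4.50, limma adjusted p = 2.75e-10) and ranked 21st among all rises, with 6.25% of genes called higher and 5.36% lower. From day 2 to day 4 the difference was 0.15, with a 95% interval of -0.37 to 0.68 (limma adjusted p = 0.843), and 1.43% of genes were called. With the Gapdh difference as a covariate it was 0.03, and both day 4 arrays have a low Gapdh difference, so no value without them can be had.

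At day 2 Dppa3 stood far apart between the 2 routes, and at day 4 its difference did not pass the test. BP14A cells exceeded Ck-PGCLCs by 3.29 at day 2, or 9.78-fold (limma adjusted p = 1.21e-08), with 12.6% of genes called. At day 4 the difference was 0.25, with an interval of -0.28 to 0.77 (limma adjusted p = 0.618), and 6.12% of genes were called. The change from day 2 to day 4 itself differed between the routes by -3.04 (SE 0.36, limma adjusted p = 8.25e-06), a test called for 14.9% of all genes. It was -3.18 with the Gapdh covariate.

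The 4 combinations of transgenes gave similar levels of Dppa3. BP14 cells had 12.71 and 12.54, P14A cells 12.58 and 12.54, and P14 cells 12.63 and 12.50. The arrays of these 3 groups overlapped one another, and the BP14A arrays at 12.91 and 12.70 overlapped those of BP14 but lay above those of P14A and P14. P14 cells, with Prdm14 alone, had a mean of 12.57 ± 0.09, against 12.80 ± 0.15 for all 3 transgenes.

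Against the parental cells with Dox, whose 2 arrays all 4 comparisons share, the rises were among the largest on the array. They were 7.03 for BP14A, with 13.9% of genes called, 6.86 for BP14, with 12.8%, 6.79 for P14A, with 12.5%, and 6.80 for P14, with 12.9%. The limma adjusted p lay between 1.49e-12 and 2.83e-12. These are 131-fold for BP14A and 111-fold for P14. Dppa3 had the third largest rise of all genes tested in BP14A cells, and ranked 2 in BP14, P14A and P14 cells. These rises include the distance of 2.54 by which the parental cells lay under EpiLCs.

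The differences among factor lines were small, and the intervals bound them as differences of signal. Whether the signal still followed the amount of RNA in proportion at these levels was not tested. BP14A minus BP14 was 0.18 (95% interval -0.35 to 0.70), with 0.329% of genes called. BP14A minus P14A was 0.24 (-0.29 to 0.77), with 0.0129% called, and BP14A minus P14 was 0.23 (-0.29 to 0.76), with 0.129% called. No upper bound reached 1 log2 unit, the 2-fold limit of a call. BP14 minus P14 was 0.06 (-0.47 to 0.59), with 0.0452% called, and P14A minus P14 was -0.01 (-0.53 to 0.52), with 0.0258% called; the direction of both turned without single arrays. The effect of the Blimp1 transgene with against without Tfap2c differed by 0.18 (-0.56 to 0.93), with 0.0258% of genes called. These 6 limma adjusted p-values were all at or above 0.947.

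**Figure D2:**
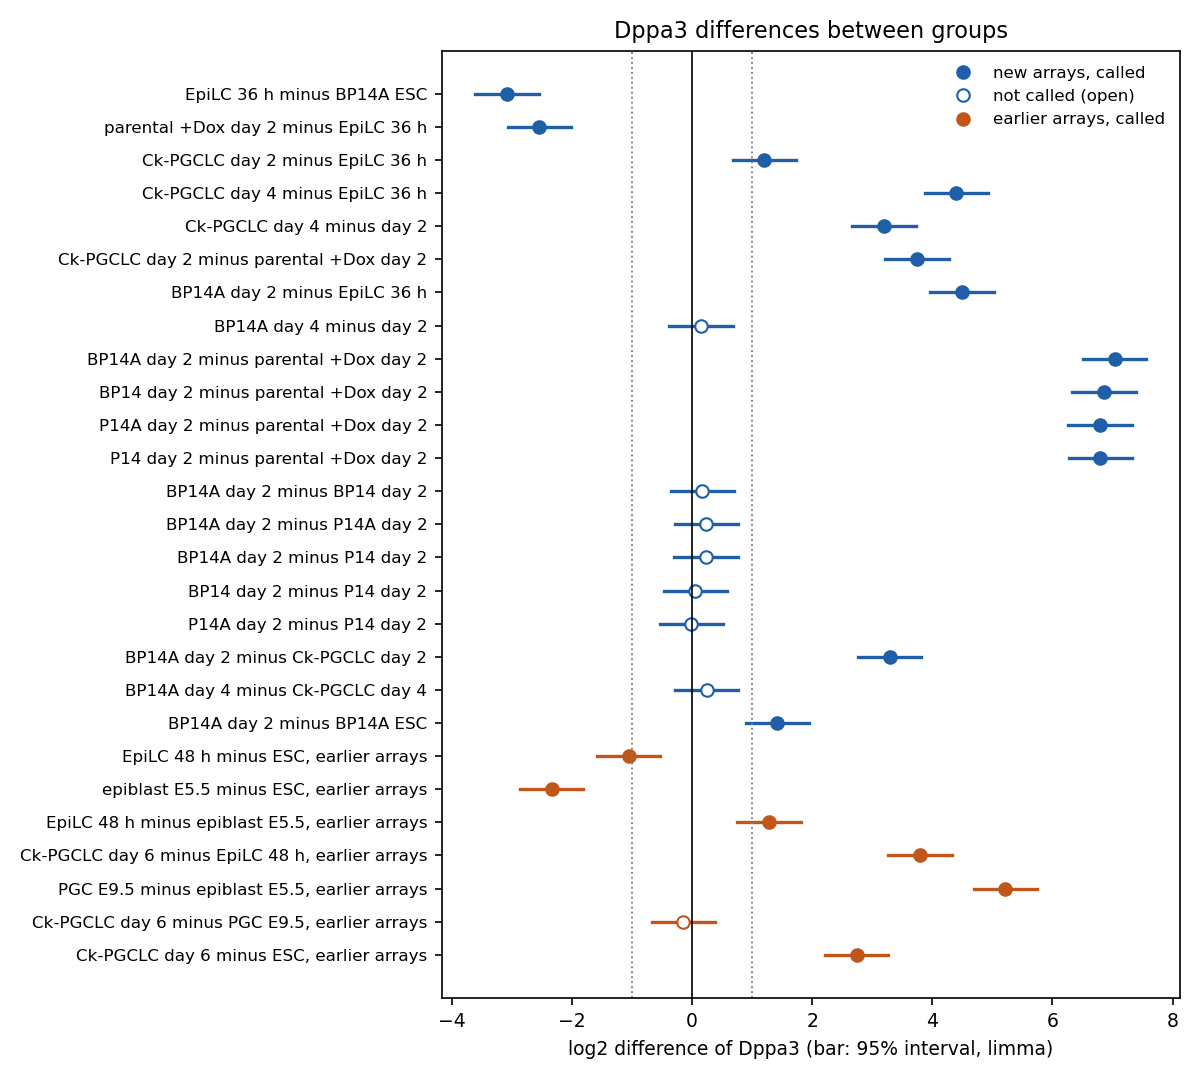
Log2 difference of Dppa3 (x axis) for the 27 pairs of groups tested (y axis), with 95% intervals from limma; filled points were called, open points were not, blue marks the new and orange the earlier arrays, and dotted lines mark 2-fold. Of the 27 pairs 19 were called, and the 4 factor lines against parental cells with Dox lie farthest from 0, at 6.79 to 7.03.

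BP14A ESCs treated with Dox without a passage through EpiLCs had 12.68 and 12.59. They were sorted on a stella reporter, so their Dppa3 level depends on the sort and was not tested. Their level of 12.64 ± 0.07 compares with 11.38 ± 0.07 in unsorted BP14A ESCs without Dox and with 12.80 ± 0.15 in BP14A cells of day 2 made from EpiLCs. These last exceeded BP14A ESCs by 1.42, or 2.68-fold (limma adjusted p = 0.000281), with 13.4% of all genes called. The level at day 2 was thus above that of naive ESCs as well as that of EpiLCs.

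In the earlier arrays the endpoint of the cytokine route could be set beside germ cells of the embryo. Ck-PGCLCs of day 6 had 12.95 and 13.01, and PGCs at E9.5 had 13.02 and 13.22. The arrays did not overlap, but the gap between the nearest was smaller than the spread of the PGCs. The difference was -0.14 (95% interval -0.67 to 0.39, limma adjusted p = 0.84), with 7.36% of all genes called. Ck-PGCLCs of day 6 were 13.9-fold above EpiLCs of 48 h (log2 difference 3.80, limma adjusted p = 9.54e-10), with 18.6% of genes called, and 6.69-fold above ESCs (2.74, limma adjusted p = 8.21e-08), with 16.1% called.

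PGCs were 37.2-fold above the epiblast (5.22, limma adjusted p = 1.48e-11), with 8.9% of genes called higher and 6.9% lower, and the rise ranked 25th. The PGC arrays also held blood and endothelial markers. All 5 were above the filter level, with means of 8.72 and 9.54, against 4 of 5 and means of 4.12 and 4.56 in the epiblast and 4 of 5 and means of 5.16 and 5.63 in Ck-PGCLCs of day 6. Their part in the level of Dppa3 was not tested.

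Early germ cell genes, a list of 14 tested genes without Dppa3, were next set beside it. In EpiLCs against BP14A ESCs 9 were lower and none higher, with a median difference of -1.87 against 0.05 over all genes. In that comparison 7.45% of all genes were lower and 7.17% higher. Without Prdm1, Prdm14 and Tfap2c, which BP14A ESCs carry as transgenes, 6 of 11 were lower and none higher, with a median of -1.18. Against EpiLCs, 8 were higher and 1 lower in Ck-PGCLCs of day 2, with a median of 1.48, and 12 were higher and 1 lower both at day 4 and in BP14A cells of day 2, with medians of 3.71 and 3.50. The list holds Prdm1, Prdm14 and Tfap2c, which BP14A cells carry as transgenes. Without these, 9 of 11 were higher and 1 lower in both, with medians of 3.15 and 2.26. The member that was lower in each of these was Rhox5. Over all genes 8.42% were higher than in EpiLCs and 6.06% lower in Ck-PGCLCs of day 2. These shares were 9% and 7.4% at day 4, and 6.25% and 5.36% in BP14A cells of day 2. In PGCs against the epiblast 12 were higher and none lower, with a median of 4.19, beside 8.9% and 6.9% of all genes. In the parental cells with Dox the list divided: against EpiLCs, 4 members were higher and 3 lower, beside 7.23% and 5.63% of all genes.

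Prdm1, Prdm14 and Tfap2c, the genes of the 3 factors, differed from Dppa3 in the cytokine route. In Ck-PGCLCs of day 2 they were already above EpiLCs by 4.30, 5.63 and 4.85, where Dppa3 had gained 1.21. From day 2 to day 4 they gained a further 2.08, 2.01 and 2.13, where Dppa3 gained 3.20. Rhox9 and the integrin gene Itgb3 instead had their larger step from day 2 to day 4, as Dppa3 did. Rhox9 differed by -0.03 between day 2 and EpiLCs and then rose by 5.28, and Itgb3 differed by 0.51 and then rose by 4.65.

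Kit and Dnd1 are further germ cell genes of the list, and Fgf5 marks the primed epiblast. Kit, the receptor gene for SCF, was lower in EpiLCs than in BP14A ESCs (log2 difference -4.62). It rose by 1.47 from EpiLCs to Ck-PGCLCs of day 2, by a further 3.59 to day 4 and by 4.17 from EpiLCs to BP14A cells of day 2. Its change from day 2 to day 4 differed between the routes by -3.56 (limma adjusted p = 1.85e-06), beside -3.04 for Dppa3. Dnd1, which encodes an RNA-binding protein that germ cells need to survive, differed by 0.72 between EpiLCs and ESCs without passing the test, and rose by 2.60 in Ck-PGCLCs of day 2 and by 2.26 in BP14A cells of day 2. Fgf5 was at 9.93 ± 0.24 in EpiLCs, 4.23 ± 0.64 in Ck-PGCLCs of day 2 and 7.70 ± 0.34 in BP14A cells of day 2, so the cells with the higher Dppa3 level at day 2 also had the higher Fgf5 level.

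Naive and primed pluripotency genes frame the same course. Of 13 naive genes, 11 were lower and none higher in EpiLCs than in BP14A ESCs, with a median of -4.79. Of all genes 7.45% were lower and 7.17% higher, with a median of 0.05. Against EpiLCs, Ck-PGCLCs had 9 naive genes higher and 3 lower at day 2 and 9 higher and 1 lower at day 4, and BP14A cells of day 2 had 8 higher and 1 lower, with medians of 2.48, 3.32 and 2.17. Among those that rose in BP14A cells, Klf2 gained 5.39 and Tfcp2l1 4.67, while Fgf4, a ligand gene of pluripotent cells, was the member that fell (-2.34). Prdm14, a transgene in BP14A cells, is counted in this list, and without it 7 of 12 were higher and 1 lower there. In EpiLCs against BP14A ESCs, 10 of 12 were lower and none higher without it. Of 11 primed epiblast genes, Ck-PGCLCs of day 2 had 3 above EpiLCs and 6 below; 1 lay above and 6 below at day 4, and none above and 8 below in BP14A cells of day 2, with medians of -2.16, -1.95 and -2.23. Pou3f1 and Otx2, transcription factor genes of the primed state, differed by -5.48 and -2.34 in BP14A cells. Of all genes, 8.42% lay above EpiLCs and 6.06% below in Ck-PGCLCs of day 2. These shares were 9% and 7.4% at day 4, and 6.25% and 5.36% in BP14A cells of day 2. The medians over all genes were -0.04, -0.03 and -0.02.

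Germ cell genes of later stages took another course than Dppa3 in Ck-PGCLCs of day 2. All 8 tested members were lower than in EpiLCs in Ck-PGCLCs of day 2 and in the parental cells with Dox. The medians were -3.54 and -3.99, where 6.06% and 5.63% of all genes were lower. In the parental cells with Dox, Dppa3 was lower as well (-2.54). The list includes Dazl, an RNA-binding protein gene, Mael of the piRNA pathway, and Sycp3 and Hormad1, genes of the meiotic chromosome axis. Dazl differed from EpiLCs by -4.36 in Ck-PGCLCs of day 2, when Dppa3 had gained 1.21, and by 0.09 at day 4. In BP14A cells of day 2, with Dppa3 at 12.80, 2 of the 8 were lower and none higher, and Dazl differed by 0.40. There 5.36% of all genes were lower and 6.25% higher. The whole list had 4 members lower and none higher in Ck-PGCLCs of day 4, and in PGCs against the epiblast 4 were lower and 1 higher. Over all genes 7.4% were lower and 9% higher in the former, and 6.9% and 8.9% in PGCs. The 1 higher member in PGCs thus lay near the share over all genes.

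The genes whose 16 group means were most like those of Dppa3 were sought among 2036 genes with a range of at least 3 log2 units. In order of Pearson's r they were Mreg at 0.96, Cpsf4l, Rhox9 and Slc7a9 at 0.94, and Ppfibp2, Fam169b, Wdr62 and Tjp3 at 0.93. Mreg encodes melanoregulin, a protein of melanosome transport, Slc7a9 a subunit of an amino acid transporter, Wdr62 a centrosomal protein and Tjp3 a tight junction protein. The middle candidate had r = -0.04, and 5% of candidates had r above 0.79. The most opposite genes were L3mbtl3 at -0.93 and Plpp2, Sufu and Bin1 at -0.90; L3mbtl3 encodes a reader of methylated lysines and Sufu a brake on Hedgehog signalling. The points are group means from the same arrays, so the groups share arrays and any quality difference, and r is given as a description.

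Rhox9 had the widest range of these genes. Its mean was 1.10 ± 0.42 in the parental cells with Dox, under the filter level of 4.05, 5.55 ± 0.35 in EpiLCs, 10.81 ± 0.16 in Ck-PGCLCs of day 4 and 12.18 ± 0.12 in PGCs. Among factor lines at day 2 its mean was 10.90 ± 0.19 in BP14A and 9.43 ± 0.23 in BP14 cells. It was 8.87 ± 0.35 in P14A and 9.05 ± 0.24 in P14 cells. By Spearman's rho Rhox9 was the first of all candidates at 0.97 and Slc7a9 the third at 0.96, while Mreg had rank 91. Esrrb, a naive pluripotency factor, had r = 0.91 and rank 15, Ifitm3 (fragilis) 0.89, Prdm1 0.88, Tfap2c 0.87 and Prdm14 0.84, while Klf4 was at 0.05. The last 3 before Klf4 are transgenes in some of these groups, which the values of r include.

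**Figure D3:**
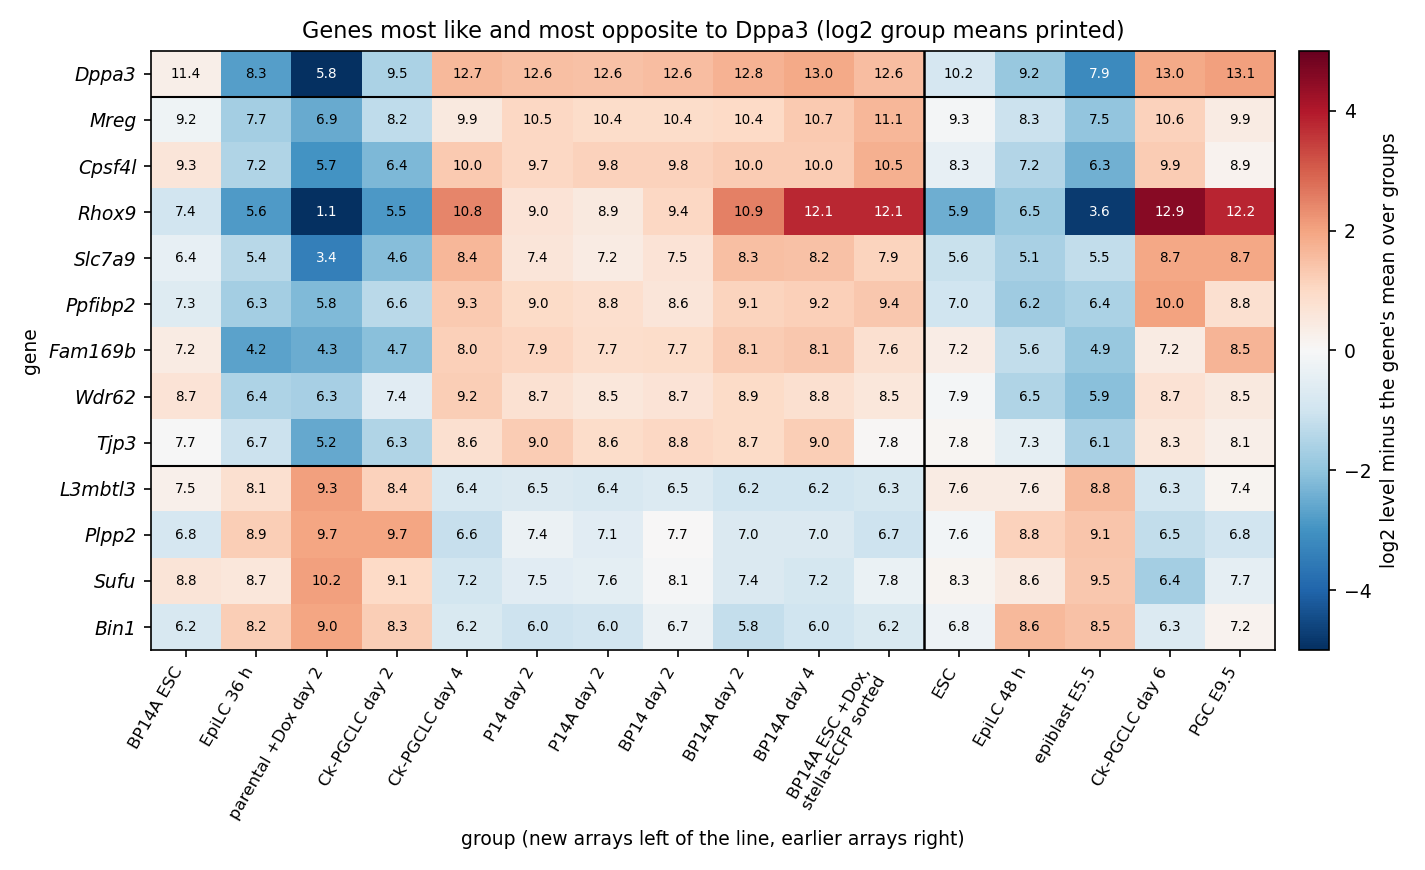
Heat map of group means for Dppa3, the 8 genes most like it and the 4 most opposite (y axis) in the 16 groups (x axis), with the log2 mean printed in each cell and colour giving that mean minus the gene's own mean over groups. Like Dppa3 at 5.8, Rhox9 at 1.1 and Slc7a9 at 3.4 had their lowest mean in the parental cells with Dox, where L3mbtl3 had its highest, 9.3.

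Dppa3 lies between Gdf3 and Nanog on chromosome 6, in a stretch that is known for genes of pluripotent cells. Of the 6 genes on each side, 10 are described here. The group means of its direct neighbours followed those of Dppa3 in part only. Pearson's r over the 16 groups, given as a description, was 0.75 for Gdf3, which encodes a TGF-beta family ligand, and 0.49 for Nanog, which encodes the homeodomain factor of pluripotency. It was 0.74 for Rimklb, 0.48 for the glucose transporter gene Slc2a3 and 0.32 for the RNA editing enzyme gene Apobec1. It was 0.40 for Foxj2, 0.31 for Necap1, -0.10 for C3ar1, -0.15 for Phc1 and -0.18 for Mfap5.

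Gdf3 and Nanog parted from Dppa3 in different groups. In EpiLCs, Nanog fell relative to BP14A ESCs (log2 difference -4.79) and so did Slc2a3 (-2.46), as did Dppa3, but Gdf3 differed by -0.43 (limma adjusted p = 0.0551). In the parental cells with Dox, Gdf3 fell relative to EpiLCs (-3.94) together with Dppa3, while Nanog rose by 4.16 and Slc2a3 by 2.30. In Ck-PGCLCs of day 2 Gdf3 was again lower than in EpiLCs (-2.10) and Nanog higher (3.31). At that point Dppa3 had gained 1.21. From day 2 to day 4 Gdf3 and Dppa3 both rose, by 1.98 and 3.20, while Nanog differed by 1.19 without passing the test.

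Of 11 tested genes on the list of the region, 2 were called above EpiLCs and 1 below them, both in Ck-PGCLCs of day 4 and in BP14A cells of day 2, and 4 were higher and none lower in PGCs than in the epiblast. The medians were -0.12, 0.09 and 0.19, against -0.03, -0.02 and -0.0018 over all genes. Over all genes 9% were higher and 7.4% lower in the first comparison, 6.25% and 5.36% in the second and 8.9% and 6.9% in PGCs, so in the first pair the counts for the region lay near those shares. Nanog and Slc2a3 made up the rises in that pair, and Nanog, Gdf3, Rimklb and Apobec1 those in PGCs. The extracellular matrix gene Mfap5 was the member that fell.

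**Figure D4:**
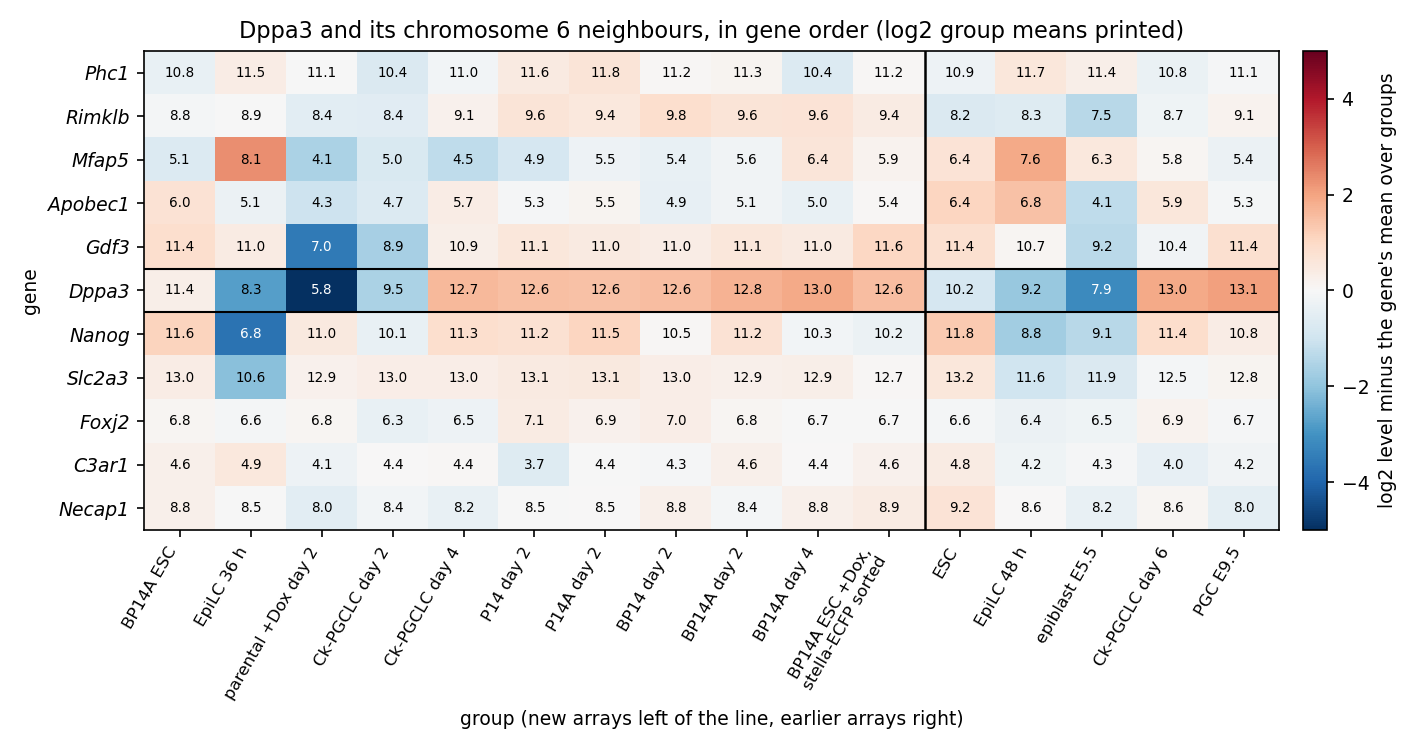
Heat map of group means for Dppa3 and the measured genes among the 6 on each side of it, in gene order on chromosome 6 (y axis), in the 16 groups (x axis), with the log2 mean printed and colour giving the mean minus the gene's own mean over groups. In the parental cells with Dox, Gdf3 and Dppa3 are low, at 7.0 and 5.8, while Nanog is at 10.96.

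The last set examined was the DNA methylation and H3K9 dimethylation machinery with which the stella protein is linked. Of 13 tested genes, Ck-PGCLCs of day 4 had 2 called above EpiLCs and 4 below, BP14A cells of day 2 had 2 above and 3 below, and PGCs had 3 above the epiblast and 5 below. The medians were -0.12, 0.10 and -0.23, against medians over all genes of -0.03, -0.02 and -0.0018. The shares of all genes called were, as above, 9% and 7.4%, 6.25% and 5.36%, and 8.9% and 6.9%. In EpiLCs against BP14A ESCs 5 were higher and 1 lower, beside 7.17% and 7.45% of all genes. The members that fell with the rise of Dppa3 were foremost the de novo methyltransferase genes. Dnmt3a fell by 5.93 and Dnmt3b by 5.20 in Ck-PGCLCs of day 4, and by 3.60 and 3.88 in BP14A cells of day 2.

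Uhrf1, whose product stella binds and moves out of the nucleus, had lower means in PGCLCs than in EpiLCs, with a wide spread between arrays. It had 9.63 and 10.73 in EpiLCs, 8.01 and 8.67 in Ck-PGCLCs of day 4 and 7.79 and 9.20 in BP14A cells of day 2. The latter arrays lay below both EpiLC arrays, but the differences of -1.84 (limma adjusted p = 0.0538) and -1.69 (limma adjusted p = 0.102) did not pass the test. In the earlier arrays they did, with a fall from EpiLCs of 48 h to Ck-PGCLCs of day 6 of -2.90 (limma adjusted p = 0.00298) and a fall from the epiblast to PGCs of -2.52 (limma adjusted p = 0.00952). Over the 16 group means, which share arrays, Uhrf1 had r = -0.61 with Dppa3 as a description. Counted from the most like, this was rank 1774 of 2036 candidates, of which 5% had r below -0.74.

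Dnmt1, the maintenance methyltransferase gene, had means of 11.21 in EpiLCs, 11.87 in Ck-PGCLCs of day 4, 11.46 in BP14A cells of day 2 and 11.98 in PGCs, and none of its differences in these comparisons was called. Ehmt1, whose product helps to lay down H3K9 dimethylation, fell in Ck-PGCLCs of day 4 (-1.32) and in PGCs (-1.91), but in BP14A cells of day 2 its difference was -0.32. Its partner gene Ehmt2 differed by -0.07, 0.20 and -0.22 in Ck-PGCLCs of day 4, BP14A cells of day 2 and PGCs. Tet1, which encodes a 5-methylcytosine oxidase, was below EpiLCs in the parental cells with Dox (-1.40) and in Ck-PGCLCs of day 2 (-1.08), and differed by 0.31 in Ck-PGCLCs of day 4 and 0.56 in BP14A cells of day 2. Tet2 was not called in these comparisons, and Tet3 was too dim to be tested.

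**Figure D5:**
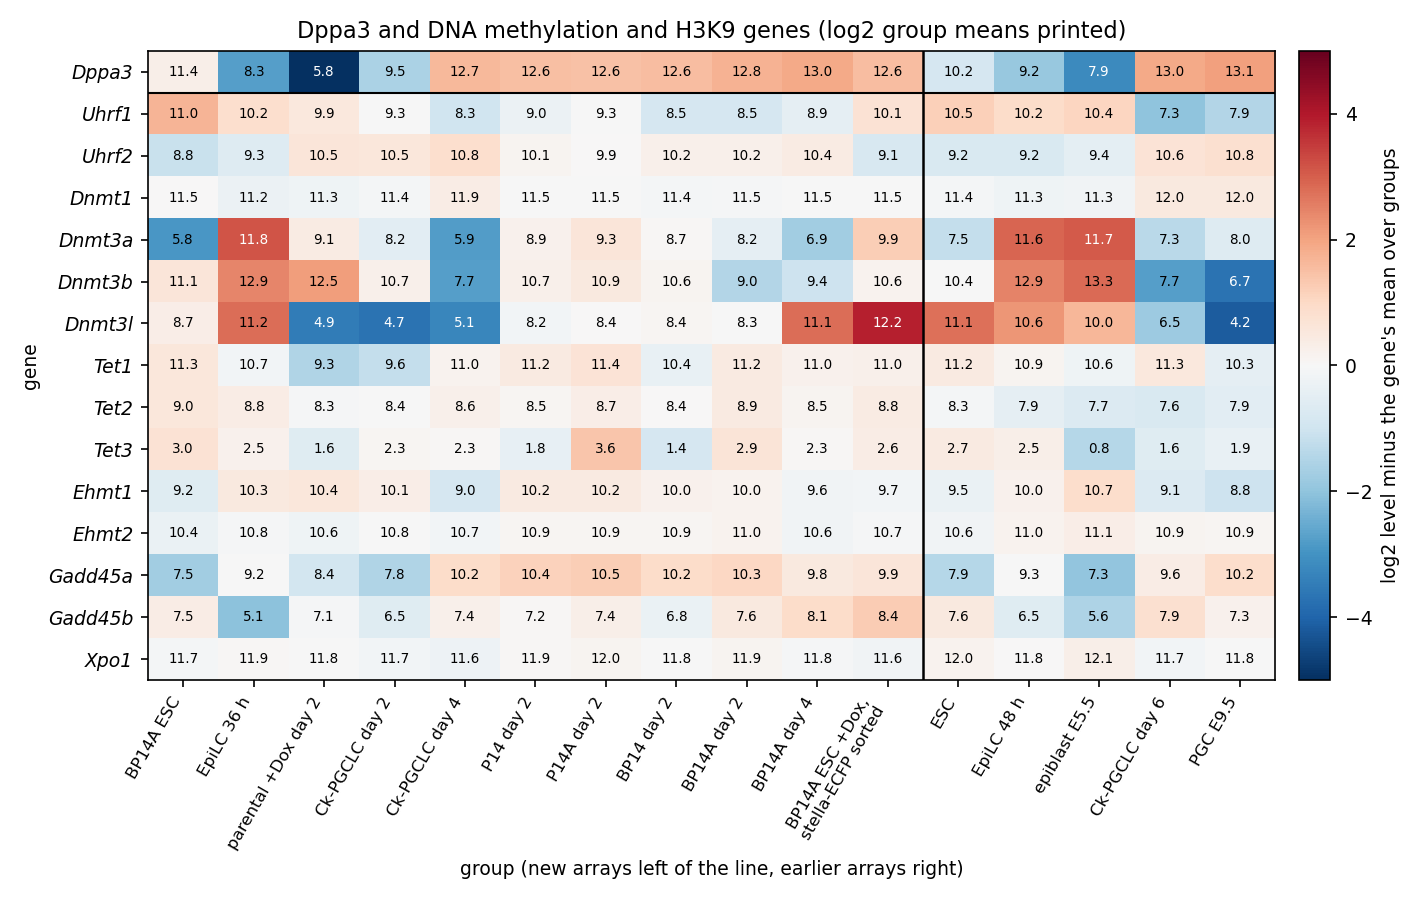
Heat map of group means for Dppa3 and genes of DNA methylation and H3K9 dimethylation (y axis) in the 16 groups (x axis), with the log2 mean printed and colour giving the mean minus the gene's own mean over groups. In Ck-PGCLCs of days 4 and 6 and PGCs, with Dppa3 at 12.7 or above, Uhrf1 is at 8.3 or below and Dnmt3b at 7.7 or below; Uhrf1 is at 8.5 in BP14A cells of day 2, whose arrays overlap those of Ck-PGCLCs of day 4.

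Of 4 tested genes whose imprints stella is known to protect in the zygote, 3 (Mest, Nnat and Peg3) were higher in EpiLCs than in BP14A ESCs, the reverse of Dppa3; the difference was 2.71 for Mest and 1.01 for Peg3, where 7.17% of all genes were higher. In the earlier arrays none of the 4 was called between EpiLCs of 48 h and ESCs, where 14.4% of all genes were called. So small a list cannot tell none called from that share. Mest differed there by 0.88 (limma adjusted p = 0.052). In BP14A cells of day 2 against EpiLCs none was called in either direction, and in Ck-PGCLCs of day 4 Peg3 alone was called, at 1.01. Expression was measured and not methylation. Among 9 tested Dppa genes and genes of maternal factors, 1 was higher than in EpiLCs in Ck-PGCLCs of day 4 and in BP14A cells of day 2, and 2 and 1 were lower. With 9% and 6.25% of all genes higher and 7.4% and 5.36% lower, these counts lay near the shares over all genes. The one that rose was Tcl1, which encodes a co-activator of AKT kinases, with 4.98 and 4.77, and like Dppa3 it was lower in EpiLCs than in BP14A ESCs (-5.81). Zfp57, whose product binds imprinting control regions, fell in both comparisons, in BP14A cells by a log2 difference of -1.45. Dppa2 and Dppa4 were below EpiLCs in Ck-PGCLCs of day 2 (-3.25 and -2.37), at a time when Dppa3 had begun to rise, and Dppa5a differed by -0.43.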

How the data were processed

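Gene expression was measured in 32 samples, 2 for each of 16 groups, each on a 1-colour Affymetrix mouse array. Per the labels' protocols, RNA was prepared with Qiagen RNeasy and biotinylated cRNA was made in one cycle of labelling after the Affymetrix manual. The authors' deposited values are 1 log2 value per probe set and array, from 0 to 14.59; that they are log2 values was inferred from their range and step. How the authors summarised and normalized them is not given in the sources used here. Files give no signal over background, so the number of arrays limits the precision.

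The arrays were quantile normalized, so a change in RNA content per cell cannot be seen. Of 45101 probe sets, 64 controls were left out, and 34958 had 1 symbol in the platform annotation, 34754 of them matched to RefSeq. A further 932 were listed with several symbols or none, and those not listed are unnamed here. Of a gene's probe sets the one with the highest mean was used (18193 genes). Genes with no group mean at or above the 40th percentile of all values, 4.05, were left out, which left 15497. Limma 3.58.1 (lmFit and eBayes, R 4.3.3, data.table, version 1.17.8) was fitted to 16 group means over all 32 arrays, with 16 residual degrees of freedom. A call needed both a 2-fold difference and a p, adjusted after Benjamini and Hochberg, under 0.05; differences of differences needed the p alone. No pair of arrays in a group held identical values. The code was tested on simulated data.

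Named genes were Dppa3, the 8 genes most like it and the 4 most opposite by Pearson's r, and members of the pathway lists, the called ones by size of change and a fixed set in any case. The gene and the lists were chosen with earlier results of these data known. Replicate numbers were not treated as a pairing of the samples. Alternatives were the deposited values, median centring, other probe set rules and filters, eBayes options, fewer groups in the fit, a Gapdh covariate, a replicate block and leaving out each array. Leaving out arrays with a low Gapdh difference, and leaving the 3 factor genes out of 2 lists, was added after seeing the data.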

Additional observations from a re-analysis of the deposited data

Results flagged for a closer look

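The change of Dppa3 from day 2 to day 4 differed between the factor route and the cytokine route by -3.04 (SE 0.36, limma adjusted p = 8.25e-06), a difference between groups that was tested as an interaction. BP14A cells had 12.91 and 12.70 at day 2 and 12.99 and 12.92 at day 4, while Ck-PGCLCs had 9.34 and 9.69 at day 2 and 12.71 and 12.71 at day 4.

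The difference between EpiLCs and ESCs was larger by -2.02 in the new arrays than in the earlier ones (SE 0.36, limma adjusted p = 0.00793), also tested as an interaction and chosen after the values were seen. It was -3.08 in the new arrays, where EpiLCs and ESCs were also of different clones, and -1.05 in the earlier ones. No group of 2 arrays can be examined for a single outlying array.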

How the results depend on the processing

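All 30 Dppa3 differences kept their direction and side of the threshold with the deposited values, median centring, the mean of probe sets, each probe set tested, no filter, the filter at the 60th percentile, the eBayes options and an adjusted p of 0.01. The exceptions came from fits on fewer arrays and from the Gapdh difference. EpiLCs of 48 h against ESCs (-1.05) and against the epiblast (1.28) were no longer called with arrays of the same set only (limma adjusted p = 0.079 and adjusted p = 0.114) or with the compared groups only (limma adjusted p = 0.176 and adjusted p = 0.296), and over the arrays left out in turn they ran from -1.58 to -0.53 and from 0.76 to 1.81. The difference of -2.02 between new and earlier arrays was not called with the compared groups only (limma adjusted p = 0.317), nor at -2.17 without the arrays of low Gapdh difference (limma adjusted p = 0.123). P14A minus P14 turned to 0.014 with the Gapdh covariate and ran from -0.074 to 0.060 over the arrays left out; BP14 minus P14 turned to -0.029 without the arrays of low Gapdh difference and ran from -0.029 to 0.15. Where fewer arrays enter a fit, its estimate of the spread has fewer degrees of freedom; other causes were not tested.

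Same-numbered arrays deviated together in some pairs of groups only: 41 of 120 pairs had a correlation over 0.1, with a median of 0.05 and a range of -0.35 to 0.52. With the replicate block, EpiLCs of 36 h against BP14A ESCs stayed at -3.08, and no call on Dppa3 changed.

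The count of called genes behind the background shares moved over 1.5 times in 102 of 518 alternatives. When each probe set was tested, more features entered, and for EpiLCs of 36 h against BP14A ESCs 2265 became 3814. With the compared groups only, BP14A day 4 minus day 2 had 0 calls in place of 222 (limma with 2 residual degrees of freedom, where 1966 genes had an unadjusted p under 0.05), EpiLCs of 48 h minus the epiblast 735 against 25, Ck-PGCLCs of day 6 minus PGCs 1140 against 171, PGCs minus the epiblast 2450 against 1503, BP14A day 2 minus EpiLCs 1799 against 1123 and the difference between new and earlier arrays 153 against 4. BP14A minus BP14 had 51 calls against 0 (712 at an unadjusted p under 0.05 in limma) to 199 without BP14 replicate 2, BP14A minus P14A 2 against 0 (928) to 6, BP14A minus P14 20 against 1 to 33, BP14 minus P14 7 against 2 to 75, P14A minus P14 4 against 2 to 13 and Blimp1 with against without Tfap2c 4 against 1 to 10. BP14A minus Ck-PGCLCs at day 4 had 949 against 598 without 1 Ck-PGCLC array, and the route by day 2303 against 1324 at an adjusted p of 0.01. Of the 8 genes most like Dppa3, 2 were among the first 8 by Spearman's rho, 5 over the new groups only, 6 without the sorted ESCs or over the 32 arrays, and 7 on the deposited values.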
